A study of Mus musculus with 24 samples.

Results

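The Hox, Cdx and Evx genes are the homeobox genes that mark and set position along the trunk and tail of the embryo. They were taken here as every row of the deposited expression table named Hoxa, Hoxb, Hoxc or Hoxd with a paralogue number, or Cdx1, Cdx2, Cdx4, Evx1 or Evx2. The rule found 39 genes among the 18205 in the table: 11 of the Hoxa cluster, 9 of Hoxb, 7 of Hoxc, 8 of Hoxd, 3 Cdx genes and Evx1. Hoxb13, Hoxc11, Hoxc12, Hoxd12 and Evx2 are not analysed here. Expression was measured by sequencing of polyA RNA from mouse cells of a BL6/129 hybrid background in which OTX2, a homeobox factor of the epiblast and the head, carries the OTX2-dTAG-EGFP fusion. dTAG13 is a degrader that sends a dTAG fusion to the proteasome, and DMSO was its vehicle, and cells were harvested after 21 h of either. That is longer than the 16 h streak step, and how the exposure lies over EPI and PS culture is not stated, so the PS comparison may include exposure in EPI culture. Every stage has 3 dTAG13 and 3 DMSO libraries, and each of the cell lines 7H, 7H1 and 7H2 gave 1 library to every group. The 4 stages were epiblast stem cells (EPI), kept in activin A, FGF2 and NVP, primitive streak cells (PS), made in 16 h of activin A and the WNT activator CHIR, and definitive endoderm made in activin A and the BMP receptor inhibitor LDN, harvested 24 h (DE1) or 48 h (DE2) from PS. Activin A was at 20 ng/ml in EPI, 40 ng/ml in PS and 100 ng/ml in DE1 and DE2, so its dose differed between these stages. Every group carries the fusion, so no untagged cells were compared. The labels do not say how the 3 lines relate to each other, and a p-value therefore describes only the spread among them.

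Hox genes lie in 4 clusters in mammals, and genes of like position in different clusters form paralogue groups. In the embryo they come on in the primitive streak in the order of their place in the cluster, low paralogue numbers first, and this order prefigures where along the body axis each is used. Cdx factors, induced by WNT signalling in the posterior streak, activate central Hox genes and shape the hindgut, and Evx1 sits beside the Hoxa cluster and is a marker of the posterior streak. HOX proteins bind DNA together with cofactors of the PBX, MEIS and PKNOX families. Definitive endoderm of the anterior kind is formed from the anterior streak and has little Hox expression, while midgut and hindgut endoderm express Cdx2 and more posterior Hox genes.

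The 250 bases before the RefSeq start (GRCm38.p6) are shown for 3 members that rose together in the streak (Evx1, Hoxb1 and Cdx2) and for Hoxc4, which rose with dTAG13 in DE1. Evx1 is read from chr6:52313248-52313497 on the plus strand, Hoxb1 from chr11:96365508-96365757 on the plus strand, Cdx2 from chr5:147307250-147307499 on the minus strand and Hoxc4 from chr15:103034145-103034394 on the plus strand. Capitals mark a match to 1 of 4 motifs searched on both strands, which are TAATCC of the kind OTX2 binds, CTTTGA of TCF/LEF, TCACAC of T-box factors and TGATNNAT of PBX-HOX pairs.
Evx1: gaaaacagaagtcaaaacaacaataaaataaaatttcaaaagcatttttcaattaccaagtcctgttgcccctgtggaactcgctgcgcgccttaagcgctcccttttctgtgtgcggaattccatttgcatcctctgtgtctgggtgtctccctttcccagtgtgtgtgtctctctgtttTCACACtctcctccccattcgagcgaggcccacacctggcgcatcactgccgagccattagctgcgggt
Hoxb1: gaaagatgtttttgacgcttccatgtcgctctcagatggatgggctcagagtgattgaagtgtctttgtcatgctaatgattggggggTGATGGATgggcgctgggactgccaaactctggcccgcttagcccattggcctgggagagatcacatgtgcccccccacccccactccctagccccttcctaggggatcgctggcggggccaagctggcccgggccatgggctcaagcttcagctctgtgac
Cdx2: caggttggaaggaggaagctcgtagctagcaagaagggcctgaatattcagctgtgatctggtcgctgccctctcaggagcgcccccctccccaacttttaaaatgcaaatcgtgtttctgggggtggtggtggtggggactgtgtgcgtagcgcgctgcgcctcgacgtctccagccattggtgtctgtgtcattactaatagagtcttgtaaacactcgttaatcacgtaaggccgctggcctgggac
Hoxc4: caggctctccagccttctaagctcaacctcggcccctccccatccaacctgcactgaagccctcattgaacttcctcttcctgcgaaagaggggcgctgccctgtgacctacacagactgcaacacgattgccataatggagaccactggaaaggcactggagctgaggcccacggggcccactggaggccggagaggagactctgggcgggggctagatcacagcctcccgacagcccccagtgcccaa
The capitals in Evx1 are TCACAC, with its first base 69 bases before the start, and those in Hoxb1 are a TGATNNAT match that begins 162 bases before the start. None of the 4 motifs matched in the Cdx2 or the Hoxc4 window. The Hoxc4 window lies inside the GENCODE span of that gene, 103018934 to 103036852, so the bases before its outer start were not searched. Over the 24 members with a RefSeq promoter, TAATCC matched in 0, against 6.25% of all 32851 promoters. CTTTGA matched in Hoxa10 and Hoxd8, and in 13.8% of all promoters. TCACAC matched in Evx1 and Hoxd9, and in 12.3% of all promoters. TGATNNAT matched in Hoxa2, Hoxb1, Hoxb8 and Hoxd11, and in 7.68% of all promoters. A match describes letters only, and a window without one says nothing of the factor.

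Values are the authors' normalised read counts per gene. They summed to 24.4 to 27.2 M per library, and 1 read is worth an estimated 0.755 to 1.46 of them, so values under about 10 rest on few reads. Differences are on the log2(value + 1) scale, which understates the change of low genes. A gene is called where limma, fitted on the 15037 genes that reached 10 in 3 libraries or more, gave a Benjamini-Hochberg adjusted p under 0.05. The stage labels were set against marker lists. All 8 primitive streak markers rose in PS against EPI, and their summed level was 87790 to 93190 in PS and 3543 to 8075 in EPI, with DMSO. Of 8 definitive endoderm markers 7 rose in DE1 against PS, with sums of 48680 to 55420 in DE1 and 15090 to 21820 in PS. Otx2 RNA, which does not report the degraded protein, was 12020 to 13790 with dTAG13 and 8656 to 10970 with DMSO in DE1. In bulk RNA, fewer cells of a type and less RNA per cell cannot be told apart.

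Most of these genes were low throughout, and the signal lay in a few of them. The tested members were 23 of the 39, namely 5 of 11 in Hoxa, 8 of 9 in Hoxb, 4 of 7 in Hoxc, 3 of 8 in Hoxd, 2 of 3 Cdx genes and Evx1. Of the tested members 9 were called in no comparison and stayed under 50 on average in every group, namely Hoxa5, Hoxa7, Hoxa9, Hoxa11, Hoxb7, Hoxb8, Hoxc6, Hoxd4 and Hoxd8, with highest values between 15.9 and 53.8. Another 8 stayed near 0, reaching 10 in only 1 or 2 libraries. These were Hoxa3, Hoxa10, Hoxb5, Hoxc5, Hoxc9, Hoxc10, Hoxd1 and Hoxd9, with highest values between 10.8 and 40.9. The last 8 were under 10 in every library: Cdx4, the Cdx gene of the X chromosome, and Hoxa2, Hoxa4, Hoxa6, Hoxa13, Hoxd3, Hoxd10 and Hoxd11, with highest values between 4.26 and 9.56. By paralogue number, both members of group 7 and all 3 of group 8 were tested, and 0 of the 3 in group 10. The highest value of any Hox gene was 324.8 in group 1 (Hoxb1), 78.1 in group 2 (Hoxb2) and 110 in group 4 (Hoxc4), while groups 10 and 11 reached 13.97 and 18.6. Counting by strand is not stated, so reads of an antisense partner cannot be told apart from those of Evx1 (Evx1os), Hoxb2 and Hoxb3 (Hoxb3os), Hoxb6 (Hoxb5os), Hoxa5 and Hoxa7 (Hoxaas3), Hoxa11 (Hoxa11os) and Hoxd4 and Hoxd8 (Hoxd3os1). In GENCODE M21 (GRCm38), Evx1 spans chromosome 6 from 52313498 to 52318378, Hoxb1 chromosome 11 from 96365752 to 96368256, Hoxb9 chromosome 11 from 96271457 to 96276595, Cdx2 chromosome 5 from 147300805 to 147307270 and Hoxc4 chromosome 15 from 103018934 to 103036852. Hoxd3 shares exon bases with Hoxd4, and Hoxc5 with Hoxc10, so their reads may be split. Hoxb1, Hoxb9, Hoxc4 and Cdx2 overlap no antisense gene of the annotation. None of 13 listed noncoding transcripts of the clusters has a row, and they are not analysed here.

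**Figure D1:**
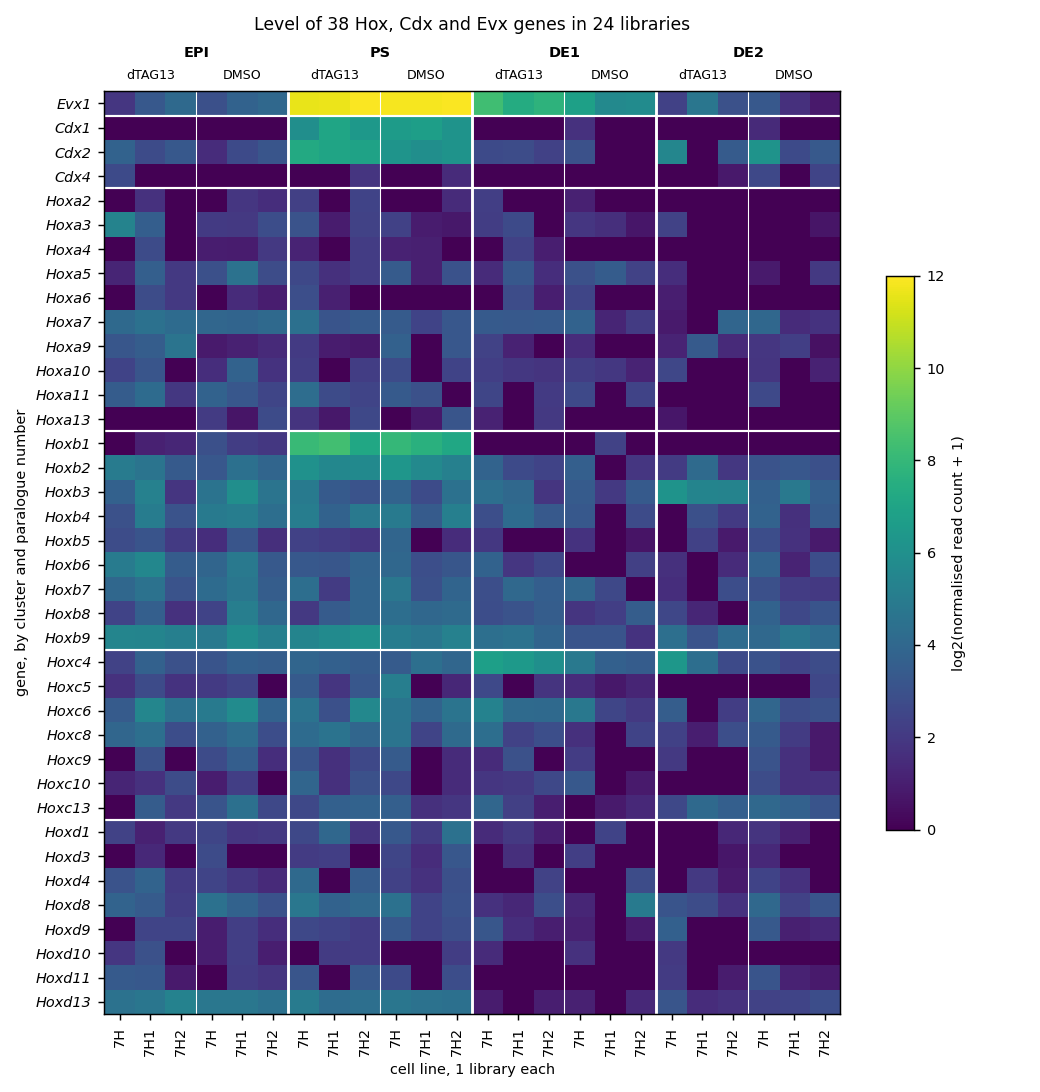
Level of 38 of the 39 genes (rows, by family or cluster and paralogue number) in the 24 libraries (columns), as log2(normalised read count + 1), with dTAG13 left of DMSO at each stage. Evx1, Cdx1, Hoxb1 and Hoxb2 are higher in each of the 6 PS libraries than in any other, and Hoxc4 stands out in the 3 DE1 libraries with dTAG13 and in line 7H of DE2 with dTAG13.

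Divided by exon length, the order of the members in PS with DMSO was led by Evx1. It stood at 1302 ± 65.3 per kilobase (SD, n = 3), ahead of Hoxb1 at 84.5 ± 24.0, Cdx1 at 51.9 ± 9.96 and Cdx2 at 29.9 ± 3.37. Hoxb2 at 15.7 ± 6.14 and Hoxb9 at 12.2 ± 2.49 came next, and these neighbours differed by less than the SD of Hoxb2, though by more than that of Hoxb9. In PS with dTAG13 the first 2 places were the same, and Cdx2 at 59.3 ± 8.13 per kilobase and Cdx1 at 52.9 ± 21.7 per kilobase differed by less than their SD. In EPI the highest per kilobase was Hoxb9, at 15.4 ± 1.62 with dTAG13 and 15.4 ± 5.45 with DMSO, but Hoxc6 came first when the longest transcript was used as the length. In DE1, Evx1 led with 81.2 ± 27.2 per kilobase with dTAG13 and 24.8 ± 11.95 with DMSO. Hoxc4 followed with 33.8 ± 9.47 per kilobase with dTAG13 and 6.58 ± 3.85 with DMSO. In DE2 with dTAG13, Hoxc4 at 13.5 ± 15.3 and Hoxb3 at 11.9 ± 3.91 per kilobase led, and differed by less than either SD. In DE2 with DMSO, Cdx2 at 12.57 ± 16.2 and Hoxb9 at 7.58 ± 1.91 per kilobase led. Cdx2 and Hoxb9 differed by less than the SD of Cdx2, though by more than that of Hoxb9.

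**Figure D2:**
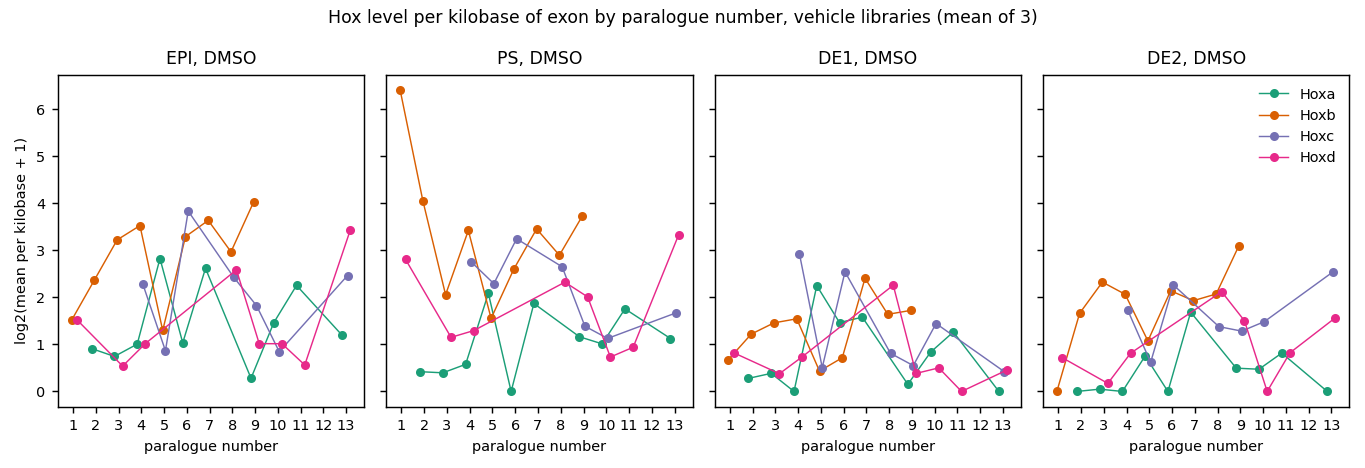
Mean level per kilobase of exon on a log2(value + 1) scale (y) by paralogue number (x) in the DMSO libraries of each stage, 1 colour per Hox cluster; lines join the members shown. In PS the Hoxb line is highest at its start, with Hoxb1 at 84.5 and Hoxb2 at 15.7 per kilobase, and at the posterior end Hoxd13 stands at 9.78 per kilobase in EPI and 9.07 in PS.

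In EPI, where these cells had not been moved toward the streak, a low level of central and posterior Hox genes was measured under both treatments. Hoxb9 had 42.4, 41.8 and 34.9 with dTAG13, against 28.2, 55.2 and 35.3 with DMSO. Hoxd13 had 22.2, 25.2 and 38.4 with dTAG13, against 25.8, 26.2 and 20.9 with DMSO. Both were read in all 6 libraries and overlapped between treatments. Hoxc6, a thoracic gene, had 9.94, 45.2 and 21.4 with dTAG13, against 29.7, 53.8 and 12.5 with DMSO. Hoxb6 had 30.7, 46.0 and 10.3 with dTAG13, against 14.3, 28.3 and 9.21 with DMSO. Hoxb3 had 12.2, 37.3 and 2.60 with dTAG13, against 22.7, 60.4 and 23.3 with DMSO. In these last 3 genes line 7H1 was the highest of its group under both treatments. Hoxb4 was also highest in 7H1, with 6.94, 32.1 and 7.38 with dTAG13, against 28.6, 33.4 and 18.9 with DMSO. Hoxb1, at the start of the order, was under 10 in all 6 EPI libraries, and Cdx1 was listed at 0 in all 6.

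From EPI to PS with DMSO, Evx1, Cdx1, Cdx2 and Hoxb1 rose and no member fell. That is 4 of 23 tested members, beside 14.6% of all tested genes that rose and 12.8% that fell. The members' median difference was -0.103 on the log2 scale, against -0.011 for all genes. Evx1 had 3654, 3619 and 3961 in PS (lines 7H, 7H1 and 7H2), against 6.58, 12.5 and 15.7 in EPI. Its log2 difference was 8.29 (SE 0.62, limma adjusted p = 5.6e-09). Hoxb1, the earliest Hoxb gene in the streak, had 251, 198 and 139.8 in PS, against 6.52, 3.53 and 2.91 in EPI. Its log2 difference was 5.23 (SE 0.61, limma adjusted p = 2.81e-06). Cdx1 had 94.7, 106 and 71.7 in PS and was listed at 0 in all 3 EPI libraries, so no fold is given (limma adjusted p = 9.03e-08). Cdx2, also the caudal factor of the hindgut and the trophoblast, had 73.6, 59.0 and 70.2 in PS, against 1.91, 5.42 and 7.95 in EPI. Its log2 difference was 3.63 (SE 1.03, limma adjusted p = 0.0125). In these 4 genes the PS and EPI libraries did not overlap. Without line 7H2, Cdx2 was no longer called (adjusted p = 0.134).

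Hoxb2, the neighbour of Hoxb1 in the cluster, did not pass the test at this step. It had 78.1, 49.8 and 36.2 in PS, against 8.69, 20.8 and 14.1 in EPI, with no overlap and a log2 difference of 1.85 (SE 0.73, limma adjusted p = 0.0636). It was called with a pseudocount of 5, after quantile normalisation and in the fit of only the groups compared. The posterior genes Hoxb9 and Hoxd13 were present in EPI already. Hoxb9 had 32.0, 24.8 and 37.5 in PS, against 28.2, 55.2 and 35.3 in EPI, and Hoxd13 had 25.0, 21.9 and 20.7 in PS, against 25.8, 26.2 and 20.9 in EPI. For both genes the 2 stages overlapped, and neither was called.

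From PS to DE1 with DMSO the test called 11 of 23 members lower in DE1 and 0 higher. Of all tested genes 22.4% fell and 21.7% rose. The members' median log2 difference was -1.82, against -0.01 for all genes. The filter kept every gene that reached its threshold at any stage. Cdx1 and Hoxb1 reached it only in PS libraries, and Hoxd13 only in EPI and PS libraries. The members' count and median therefore depend in part on this selection, and how far was not tested. Evx1 had 111, 49.6 and 53.5 in DE1, against 3654, 3619 and 3961 in PS, and fell by 5.79 on the log2 scale (SE 0.62, limma adjusted p = 2.08e-07). Hoxb1 had 0, 4.18 and 0 in DE1, against 251, 198 and 139.8 in PS, and fell by 6.79 (SE 0.61, limma adjusted p = 1.93e-08). Cdx1 had 2.26, 0 and 0 in DE1, against 94.7, 106 and 71.7 in PS, and fell by 5.93 (SE 0.59, limma adjusted p = 7.69e-08). Cdx2 had 6.77, 0 and 0 in DE1, against 73.6, 59.0 and 70.2 in PS, and fell by 5.11 (SE 1.03, limma adjusted p = 0.000409). The genes that had risen into PS were thus again low, although Evx1 at DE1 lay above its EPI values in every library.

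The other members that fell at this step span the clusters. Hoxb2 had 11.2, 0 and 2.70 in DE1, against 78.1, 49.8 and 36.2 in PS, and fell by 3.90 on the log2 scale (limma adjusted p = 0.000182). The 5' genes Hoxb9 and Hoxd13, used in the posterior trunk and in limb and tail, fell too. Hoxb9 had 7.77, 7.57 and 2.43 in DE1, against 32.0, 24.8 and 37.5 in PS, and fell by 2.33 (limma adjusted p = 0.000201). Hoxd13 had 1.13, 0 and 1.64 in DE1, against 25.0, 21.9 and 20.7 in PS, and fell by 3.72 (limma adjusted p = 6.45e-06). Their DE1 and PS libraries did not overlap. Hoxb4 had 9.01, 0 and 5.75 in DE1, against 29.9, 9.83 and 35.1 in PS, and fell by 2.49 (limma adjusted p = 0.0238). Hoxb6 had 0, 0 and 3.79 in DE1, against 15.2, 6.38 and 8.35 in PS, and fell by 2.62 (limma adjusted p = 0.00949). Hoxc8 had 2.14, 0 and 4.27 in DE1, against 23.4, 4.56 and 16.9 in PS, and fell by 2.40 (limma adjusted p = 0.0178). These last 3 rest on low values, and each lost its call when 1 line was left out: Hoxb4 without 7H2, Hoxb6 without 7H, and Hoxc8 without 7H or 7H1. Of the members not called, Hoxc4 had 28.3, 12.01 and 10.4 in DE1, against 10.1, 19.7 and 14.7 in PS, and the stages overlapped.

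From DE1 to DE2 with DMSO, 5 of 23 members rose and Evx1 fell, beside 20.2% of all tested genes that rose and 19.1% that fell. The members' median log2 difference was 0.76, against 0.021 for all genes. Hoxb9 had 15.6, 25.0 and 17.96 in DE2, against 7.77, 7.57 and 2.43 in DE1, and rose by 1.66 on the log2 scale (SE 0.44, limma adjusted p = 0.00477). Hoxc13, the last gene of its cluster, had 15.8, 12.1 and 7.59 in DE2, against 0, 0.853 and 1.64 in DE1, and rose by 2.87 (SE 0.86, limma adjusted p = 0.0111). Neither gene overlapped between the stages. Hoxd13 had 4.16, 4.42 and 6.08 in DE2, against 1.13, 0 and 1.64 in DE1, and rose by 1.71 (SE 0.52, limma adjusted p = 0.012), all under 10. Cdx2 had 70.6, 5.52 and 9.11 in DE2, against 6.77, 0 and 0 in DE1, and rose by 3.08 (SE 1.03, limma adjusted p = 0.0219), and its DE2 level was highest in line 7H. The Cdx2 libraries overlapped between the stages. Evx1 had 9.01, 2.18 and 0.749 in DE2, against 111, 49.6 and 53.5 in DE1, and fell by 4.15 (SE 0.62, limma adjusted p = 2.27e-05). Hoxb1 was listed at 0 in all 6 DE2 libraries. These 4 rises each lost their call with some line left out: Hoxb9 and Cdx2 lost it without 7H2, Hoxc13 without 7H or 7H1, and Hoxd13 without 7H1 or 7H2. The midgut and hindgut marker list, which holds Cdx2, summed to 486 to 821 in DE2 and 179 to 297 in DE1, and its part in the result was not tested.

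**Figure D3:**
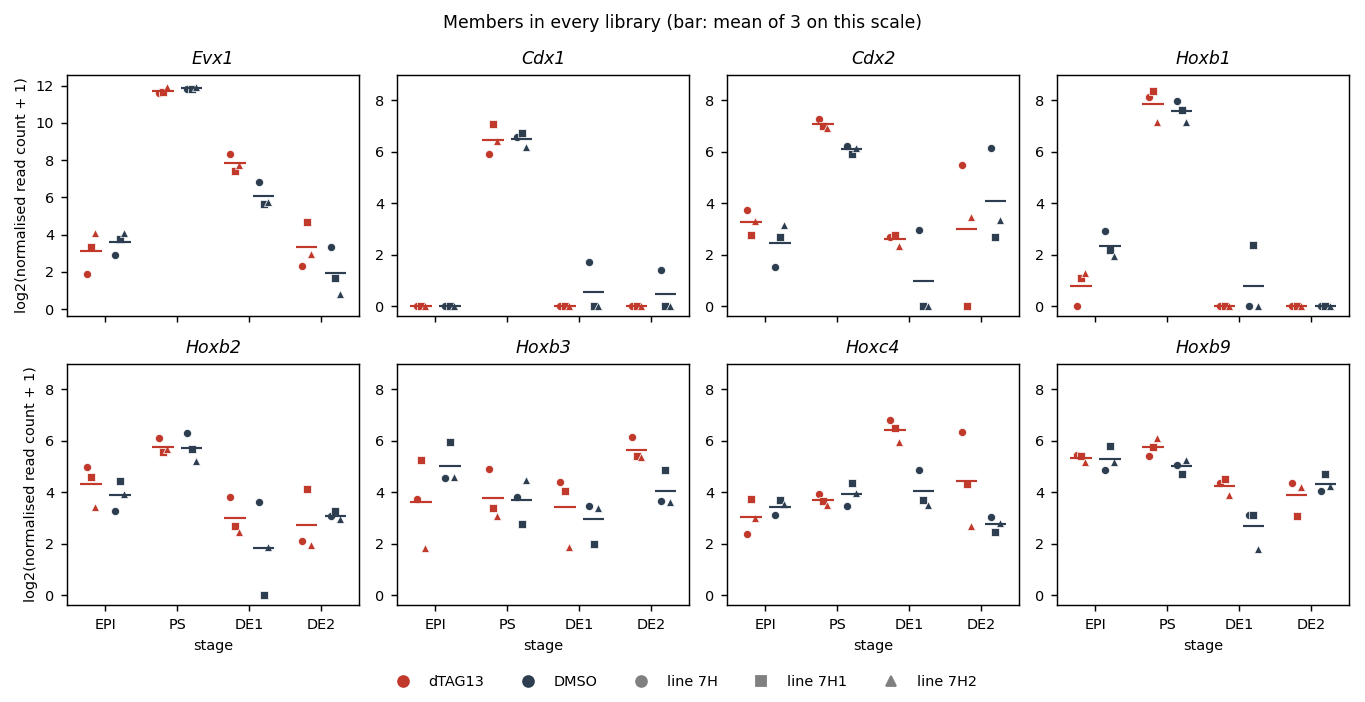
Level of 8 members in every library as log2(normalised read count + 1) (y) by stage (x), dTAG13 left of DMSO; each point is a library, its shape the cell line, and bars are means of 3. Evx1, Cdx1, Cdx2 and Hoxb1 have their highest means at PS, while Hoxc4 stands apart between treatments at DE1 (61.5 to 110 with dTAG13 and 10.4 to 28.3 with DMSO).

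OTX2 depletion in EPI and in PS was compared next, to ask whether the members depend on OTX2 there. Of 23 members limma called 0 with dTAG13 in EPI, beside 0.0865% of all tested genes, and 0 in PS, beside 0.219%. At an unadjusted p under 0.05 there were 2 members in EPI (3.55% of all genes) and 0 in PS (7.96%). The streak genes did not pass the test. Evx1 in PS had 3073, 3236 and 3929 with dTAG13, against 3654, 3619 and 3961 with DMSO, a log2 difference of -0.14 (SE 0.62, limma adjusted p = 0.983). Hoxb1 in PS had 277, 325 and 141 with dTAG13, against 251, 198 and 139.8 with DMSO, a log2 difference of 0.29 (SE 0.61, limma adjusted p = 0.952). Cdx1 in PS had 59.6, 134 and 84.0 with dTAG13, against 94.7, 106 and 71.7 with DMSO. All 3 genes overlapped between treatments. Cdx2 in PS had 155, 126 and 121 with dTAG13, against 73.6, 59.0 and 70.2 with DMSO, with no overlap. Its log2 difference of 0.97 (SE 1.03) was not called (limma adjusted p = 0.869), and its SE is shared with the other groups, where Cdx2 was spread more widely. Cdx2 and Hoxb9 were the 2 members with every dTAG13 library above every DMSO library in PS (6.77% of all genes), and Hoxb8 was the 1 below (5.87%). Hoxb9 in PS had 41.3, 52.7 and 67.1 with dTAG13, against 32.0, 24.8 and 37.5 with DMSO (log2 difference 0.75, SE 0.44, limma adjusted p = 0.707). In EPI, Hoxa9 was the 1 member above (3.7% of all genes), with 8.33, 10.51 and 23.6 with dTAG13, against 0.796, 1.13 and 1.67 with DMSO (limma adjusted p = 0.791). Hoxb1 was the 1 below in EPI (4.54%), with 0, 1.12 and 1.44 with dTAG13, against 6.52, 3.53 and 2.91 with DMSO. Both rest on few reads and neither was called.

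In DE1, Hoxc4 and Hoxb9 rose with dTAG13 and no member fell. That is 2 of 23 members, beside 3.74% of all tested genes that rose and 4.02% that fell. The members' median log2 difference was 1.02, against 0 for all genes, with 15 of 23 above 0. Hoxc4, the gene at the 3' end of its cluster, used at neck level, had 110, 89.0 and 61.5 with dTAG13, against 28.3, 12.01 and 10.4 with DMSO. It averaged 86.9 ± 24.3 with dTAG13 and 16.9 ± 9.89 with DMSO (SD, n = 3 each), and its log2 difference was 2.39 (SE 0.64, limma adjusted p = 0.0221). Hoxb9 had 19.7, 22.0 and 13.7 with dTAG13, against 7.77, 7.57 and 2.43 with DMSO, a log2 difference of 1.59 (SE 0.44, limma adjusted p = 0.0266). Evx1 had 320.1, 168 and 212 with dTAG13, against 111, 49.6 and 53.5 with DMSO, and averaged 233.5 ± 78.2 with dTAG13 and 71.4 ± 34.4 with DMSO (SD, n = 3 each). Its log2 difference of 1.74 (SE 0.62) was not called (limma adjusted p = 0.0947), but with the cell line as a block it was (adjusted p = 0.0426). With the block 3 members rose, beside 8.09% of all genes. In these 3 genes every dTAG13 library lay above every DMSO library, as in 16.4% of all tested genes, and 0 members had every dTAG13 library below (16.7% of all genes). Neither call held over all lines: Hoxb9 was lost with 7H, 7H1 or 7H2 left out, and Hoxc4 without 7H1 or 7H2. Hoxb9 was also lost in the fit of only the groups compared, which called Evx1. The adjusted p of Hoxc4 ran from 0.00705 to 0.289 over 12 alternatives and that of Hoxb9 from 0.0124 to 0.324. Of the other 7 tested Hoxb genes 6 lay on the same side and Hoxb1 on the other, none past the test. Hoxb6 had 12.8, 2.79 and 4.66 with dTAG13, against 0, 0 and 3.79 with DMSO (log2 difference 1.98, SE 0.78, limma adjusted p = 0.141). Hoxb2 had 13.03, 5.50 and 4.41 with dTAG13, against 11.2, 0 and 2.70 with DMSO. Hoxb1 was listed at 0 in all 3 dTAG13 libraries.

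Markers of other cell types moved at the same stage, where 3.74% of all tested genes rose and 4.02% fell with dTAG13. Of 8 trophoblast markers Tfap2c and Krt7 rose and Ascl2 fell with dTAG13, and the list summed to 10680 to 11400 with dTAG13 and 4607 to 5066 with DMSO, none of them at 0 throughout a group. Of 7 tested lateral and extraembryonic mesoderm markers Bmp4 and Kdr rose, and the 8 listed summed to 1341 to 1593 with dTAG13 and 638 to 780.1 with DMSO, Tal1 being listed at 0 in both groups. Hand2 went against that sum without being called, with 9.07, 6.80 and 5.02 with dTAG13, against 28.2, 13.7 and 54.9 with DMSO. Of 4 tested blood and endothelium markers Tek rose, with 14.4, 10.1 and 10.7 with dTAG13, against 1.19, 0.902 and 4.37 with DMSO. Most of that list's sum was Gata1, which was not called, with 1293, 1283 and 1405 with dTAG13, against 649, 698 and 757 with DMSO. The 5 genes in the table summed to 1345 to 1468 with dTAG13 and 682 to 804 with DMSO. Of 8 definitive endoderm markers Sox17 fell, and the list summed to 34130 to 39210 with dTAG13 and 48680 to 55420 with DMSO. Of 8 primitive streak markers Wnt3 rose, and the list summed to 60830 to 65600 with dTAG13 and 83110 to 91580 with DMSO. Most of that sum was Lhx1, which was not called, with 33500, 35370 and 31870 with dTAG13, against 55460, 56470 and 62270 with DMSO. Single streak markers went against that sum without being called. Mixl1 had 8837, 8001 and 7874 with dTAG13, against 3094, 2693 and 2894 with DMSO (limma adjusted p = 0.0897), and T had 2672, 1567 and 1590 with dTAG13, against 1135, 534.5 and 514.8 with DMSO. For both genes the groups did not overlap. Of 8 epiblast markers Dnmt3b and Fgf5 fell, and the list summed to 43190 to 44920 with dTAG13 and 62130 to 65750 with DMSO. Nanog went against that sum without being called, with 722.5, 501.7 and 476.3 with dTAG13, against 389.8, 231.7 and 235.4 with DMSO. Otx2, also on the list, was higher with dTAG13 too, while Sox3 was lower and Pou5f1 overlapped. Of 7 tested midgut and hindgut markers Hnf4a fell, and the 8 listed summed to 115 to 132 with dTAG13 and 179 to 297 with DMSO, Krt20 being listed at 0 in both groups. Foxa3, Vil1 and Lgals4 were also lower in every dTAG13 library. Cdh17 went against that sum without being called, with 27.8, 23.9 and 14.9 with dTAG13, against 5.55, 5.89 and 6.88 with DMSO. Visceral endoderm markers, of which 1 of 6 tested fell, overlapped, with sums of 97.6 to 129 with dTAG13 and 117 to 181 with DMSO, as did neural and hindbrain markers, with 0 of 6 called and sums of 154 to 184 with dTAG13 and 125 to 175 with DMSO. Paraxial and posterior mesoderm markers, where Hox genes are high in the embryo, overlapped, with sums of 113 to 143 with dTAG13 and 112 to 147 with DMSO. The part of these markers in the levels of Hoxc4, Hoxb9 and Evx1 was not tested.

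**Figure D4:**
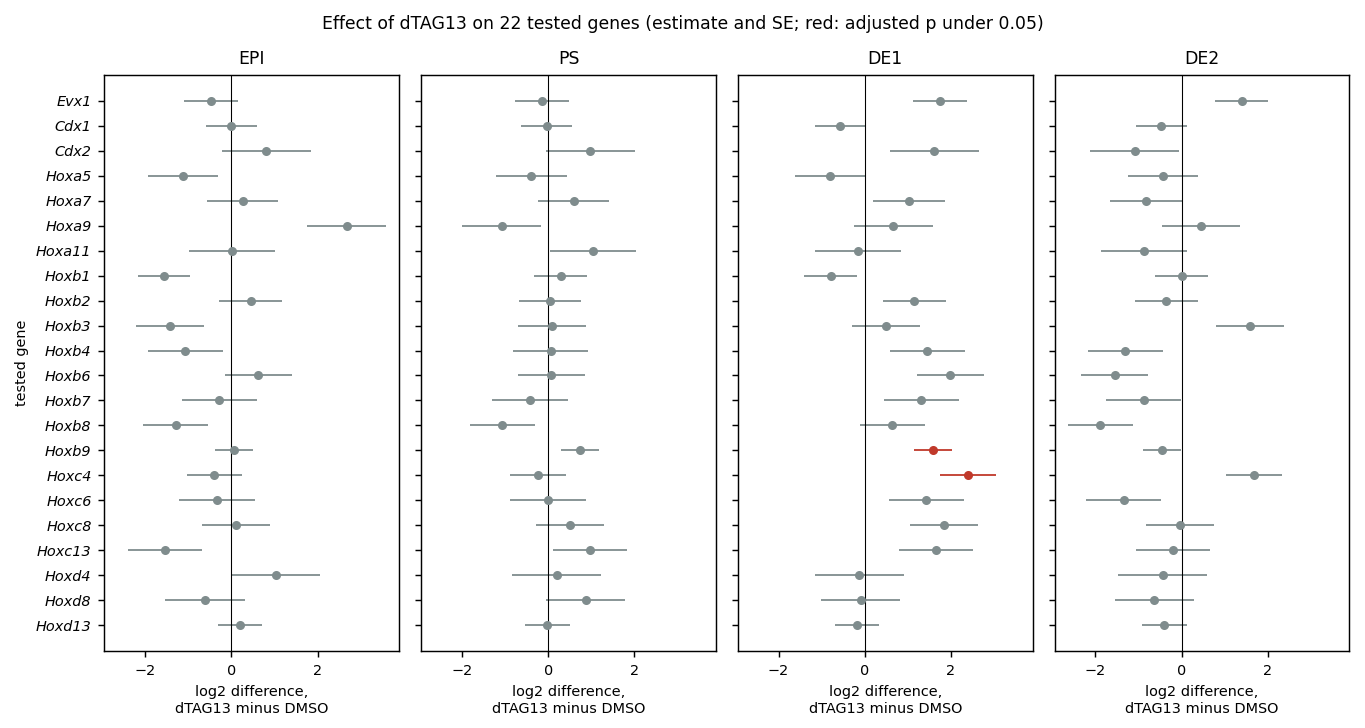
Log2 difference of dTAG13 minus DMSO (x) with its SE for 22 of the 23 tested members (y, by family or cluster and paralogue number) at each stage; red marks an adjusted p under 0.05. Hoxc4 and Hoxb9 in DE1 are the 2 red points, at 2.39 and 1.59.

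In DE2, limma called 0 of 23 members with dTAG13, although 17% of all tested genes were called. At an unadjusted p under 0.05 there were 3 members, beside 28.8% of all genes, and 4 of 23 differences were above 0, with a median of -0.447 on the log2 scale, against -0.004 for all genes. Hoxc4 had 79.4, 19.0 and 5.50 with dTAG13, against 7.24, 4.51 and 5.96 with DMSO. It was high in line 7H, and the groups overlapped through line 7H2. Its log2 difference was 1.68 (SE 0.64, limma adjusted p = 0.078). Hoxb3, a gene of the hindbrain and neck, had 69.6, 41.1 and 40.4 with dTAG13, against 11.7, 28.1 and 11.4 with DMSO. It was the 1 member with every dTAG13 library above every DMSO library (16.3% of all genes), and its log2 difference was 1.58 (SE 0.80, limma adjusted p = 0.195). The members with every dTAG13 library below numbered 2 (15.4% of all genes), among them Hoxb8, a gene of the trunk. Hoxb8 had 4.83, 1.43 and 0 with dTAG13, against 12.7, 5.07 and 7.55 with DMSO, a log2 difference of -1.88 (SE 0.75, limma adjusted p = 0.0943). With the cell line as a block, Hoxc4 (adjusted p = 0.0389) and Hoxb8 (adjusted p = 0.0414) were called, 2 of 23 beside 27.5% of all genes. Evx1 had 3.95, 24.9 and 6.82 with dTAG13, against 9.01, 2.18 and 0.749 with DMSO, and overlapped (log2 difference 1.39, SE 0.62, limma adjusted p = 0.136), but without line 7H it was called (adjusted p = 0.00523). Hoxb4 had 0, 6.55 and 3.08 with dTAG13, against 12.5, 2.21 and 9.87 with DMSO, and was called without line 7H1 (adjusted p = 0.036). Cdx2 had 44.1, 0 and 10.01 with dTAG13, against 70.6, 5.52 and 9.11 with DMSO, and was high in line 7H under both. Hoxb9 had 19.8, 7.38 and 17.5 with dTAG13, against 15.6, 25.0 and 17.96 with DMSO. Of 8 trophoblast markers 2 rose and 2 fell, with a median log2 difference of -1.344. Their sum was 8508 to 14090 with dTAG13 and 4488 to 5596 with DMSO. Krt7 went with that sum (11570, 9149 and 6984 with dTAG13, against 1881, 1886 and 1196 with DMSO). Of 6 tested neural and hindbrain markers 1 rose and 2 fell, with a median of 0.567. The 9 listed summed to 165 to 425 with dTAG13 and 361 to 649 with DMSO. Pax3 went with that sum (4.60, 8.56 and 5.63 with dTAG13, against 312, 218 and 255 with DMSO). Both sums thus ran against the list median, and the part of these markers in the members' values was not tested.

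The change of the dTAG13 effect between stages was tested itself, and 0 members were called. For PS minus EPI this stood beside 0.0133% of all tested genes, for DE1 minus PS beside 2.14% and for DE2 minus DE1 beside 5.95%. At an unadjusted p under 0.05 there were 2 members for PS minus EPI (3.98% of all genes), 2 for DE1 minus PS (11.9%) and 5 for DE2 minus DE1 (19.7%). Hoxc4 had the smallest p for DE1 minus PS, with a difference of 2.62 (SE 0.91, limma adjusted p = 0.175), and Hoxb9 for DE2 minus DE1, with a difference of -2.04 (SE 0.62, limma adjusted p = 0.0553). With the cell line as a block Hoxb6, Hoxb9 and Hoxc6 were called for DE2 minus DE1, all negative, beside 15% of all genes. Each of these differences shares the libraries of the middle stage with the next.

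Other genes of the posterior streak were counted over the same steps. Of 24 listed genes 18 rose and 2 fell from EPI to PS, 4 rose and 14 fell from PS to DE1. From DE1 to DE2 3 rose and 7 fell. Of all tested genes 14.6% rose and 12.8% fell from EPI to PS, and 21.7% rose and 22.4% fell from PS to DE1. From DE1 to DE2 20.2% rose and 19.1% fell. The ligand Wnt3a rose by 5.88 into PS (SE 0.62, limma adjusted p = 7.66e-07) and the WNT target Sp5 by 6.23 (SE 0.50, limma adjusted p = 3.16e-08). Msgn1, a gene of presomitic mesoderm, fell by 5.23 into DE1 (SE 0.66, limma adjusted p = 1.94e-06). With dTAG13, 0 of 24 were called in EPI and in PS, beside 0.0865% and 0.219% of all tested genes. In DE1 Sp8 rose by 3.97 (SE 0.81, limma adjusted p = 0.00324), Wnt3 rose by 1.11 (SE 0.25, limma adjusted p = 0.00625) and Sall4 fell by 1.15 (SE 0.22, limma adjusted p = 0.00191). Sp8 in DE1 had 92.4, 19.4 and 26.2 with dTAG13, against 12.35, 0 and 0 with DMSO, which rests on few reads with DMSO. In DE2 4 rose and 4 fell, beside 17% of all tested genes called. In DE1 3.74% of all tested genes rose and 4.02% fell. Wnt3 in DE1 had 1014, 686 and 874 with dTAG13, against 388, 367 and 419 with DMSO. The ligand and Evx1, which was not called, were both higher there in every line, and a link between them was not tested.

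The PBX, MEIS and PKNOX genes that encode the cofactors of HOX proteins were all tested, 9 of 9, although Meis2 was as low as 0 to 7.47 in DE2 with dTAG13. From EPI to PS 5 rose and 2 fell, from PS to DE1 2 rose and 4 fell, and from DE1 to DE2 3 rose and 1 fell. Beside these stand 14.6% and 12.8% of all tested genes, then 21.7% and 22.4%, then 20.2% and 19.1%. With dTAG13, 0 were called in EPI, and 0 rose and 1 fell in PS, beside 0.0865% and 0.219% of all tested genes called. In DE1 3.74% of all tested genes rose and 4.02% fell. In DE1 Pknox2 fell by 2.37 (SE 0.52, limma adjusted p = 0.005) and Pbx3 rose by 0.38 (SE 0.11, limma adjusted p = 0.0404). Pknox2 in DE1 had 105, 104 and 85.6 with dTAG13, against 576, 464 and 494 with DMSO. In DE2 1 rose and 3 fell, beside 17% of all tested genes called. Among those that fell were Pknox2 by 3.53 (SE 0.52, limma adjusted p = 4.47e-05) and Meis2 by 2.03 (SE 0.66, limma adjusted p = 0.0382).

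Retinoic acid, which activates Hox genes from the low paralogue numbers on, is made by Aldh1a and Rdh10 enzymes and removed by Cyp26 enzymes. Of 16 tested genes of the pathway 5 rose and 1 fell into PS, 5 rose and 7 fell into DE1, and 5 rose and 2 fell into DE2. Beside these stand 14.6% and 12.8% of all tested genes, then 21.7% and 22.4%, then 20.2% and 19.1%. With dTAG13, 0 were called in EPI, PS and DE1, and 2 rose and 5 fell in DE2. Of all tested genes 0.0865% were called in EPI, 0.219% in PS and 17% in DE2, while in DE1 3.74% rose and 4.02% fell. The rises in DE2 were Rdh10 by 2.44 (SE 0.31, limma adjusted p = 9.26e-06) and Cyp26a1 by 1.66 (SE 0.28, limma adjusted p = 0.000272), and the receptor gene Rarb fell by 3.57 (SE 0.59, limma adjusted p = 0.000179). Polycomb proteins hold Hox clusters silent and trithorax proteins keep them active. Of 27 genes of both groups 0 were called with dTAG13 in EPI and PS, Phf19, a Polycomb partner, rose by 1.76 in DE1 (SE 0.40, limma adjusted p = 0.00664), and 2 rose and 5 fell in DE2. Of 18 tested genes flanking the clusters, which share their surroundings and no Hox role, 2 rose and 1 fell with dTAG13 in DE1 and 1 rose and 1 fell in DE2. Among them, Skap2 beside the Hoxa cluster rose by 0.82 in DE1 (SE 0.23, limma adjusted p = 0.0338). The shares of all tested genes given above for each stage also stand beside the Polycomb, trithorax and flanking counts.

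The summed Hox level differed between the 3 lines within a group. Without Hoxb1, the other 34 Hox genes summed per kilobase in EPI to 117, 196 and 88.6 with dTAG13 (lines 7H, 7H1 and 7H2), against 119.5, 204 and 101 with DMSO. In PS the sums were 187, 113 and 166 with dTAG13, against 192, 84.1 and 139 with DMSO. In DE1 they were 127, 107 and 75.7 with dTAG13, against 76.1, 25.0 and 40.2 with DMSO, and in DE2 90.7, 44.7 and 46.1 with dTAG13, against 91.0, 51.5 and 50.2 with DMSO. The line with the highest sum was 7H1 in EPI and 7H at the other stages, under both treatments. In DE1 each line was higher with dTAG13 than with DMSO, although the groups overlapped. Hoxc4, called there, is part of these sums and of those of Hoxc. It averaged 33.8 per kilobase with dTAG13 and 6.58 with DMSO, and the sums averaged 103.2 and 47.1. By cluster, the DE1 sums per kilobase of Hoxb were 24.3 to 35.0 with dTAG13 and 10.2 to 23.5 with DMSO and did not overlap. Hoxb9, also called in DE1, is part of the Hoxb sums and averaged 7.18 per kilobase with dTAG13 and 2.30 with DMSO. The Hoxb sums averaged 30.6 with dTAG13 and 15.3 with DMSO, so their separation is not independent of the Hoxb9 call. The DE1 sums of Hoxc were 36.7 to 75.7 with dTAG13 and 7.16 to 29.9 with DMSO. Hoxa and Hoxd overlapped between treatments in DE1, at 9.53 to 19.2 with dTAG13 and 5.69 to 19.1 with DMSO for Hoxa, and 3.53 to 7.01 with dTAG13 and 2.30 to 13.9 with DMSO for Hoxd. These sums count every member once per kilobase and carry no test.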

How the data were processed

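PolyA RNA of mouse OTX2-dTAG-EGFP cells was sequenced in 24 libraries, 8 groups of 3. The authors deposited 1 signal value per gene and library, read counts normalised with DESeq2 (build mm10, per the submitters' processing notes, with no version given). The aligner and strandedness were not given in the sources used here. Every value column was used. Values of 1 member and of 1 cofactor gene are not reported here, though the counts include them. Names were missing for 71 IDs, and 1 was filled from the reference (T). Within 0.1, 57.5 to 71.4% of values under 6 were whole reads, too few to recover counts, and estimated depth was 17.1 to 33.6 M reads.

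The fit took log2(value + 1) and used limma 3.58.1 with statmod 1.5.0 in R 4.3.3, trended and robust, over 24 libraries and 8 groups (16 residual degrees of freedom). The filter was 10 in 3 libraries (15037 genes), and tests were two-sided. Lengths are merged exons of GENCODE M21 (GRCm38), and promoters are from RefSeq. The limma step was tested on simulated data.

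Samples are paired by cell line, which the replicate number names: deviations of the same line correlated at 0.0703 to 0.382, the highest being the own line in 12 of 12 cases. The fit without the block is reported. The members and lists were chosen with earlier results of these data known. Members called in any comparison, or with a group mean of at least 50, get every value, others ranges, and list examples are those with the smallest p. Alternatives were the pseudocount, filter, scaling, empirical Bayes settings, block, groups fitted and each line left out. Tables and figures used Python 3.11.15 and matplotlib 3.10.9.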

Additional observations from a re-analysis of the deposited data

How the results depend on the processing

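The 10 counts of called members were recomputed under 12 alternatives, and no named result turned its direction. Leaving out each line gave 0 to 1 called members for dTAG13 in DE1 (2 in all lines), 0 to 1 for dTAG13 in DE2 (0 in all lines), 3 to 4 from EPI to PS, 9 to 11 from PS to DE1, and 4 to 5 from DE1 to DE2 (6 in all lines). Quantile normalisation gave 2 for dTAG13 in DE2, Evx1 and Hoxc4. The replicate block, with the line as the pairing, gave 2 for dTAG13 in DE2 and 3 for the difference of DE2 and DE1, raised dTAG13 in DE1 to 3, lost 0 calls and left the other counts as they were. A filter of 50 in 3 libraries gave 6 from PS to DE1 and 3 from DE1 to DE2, since fewer members were then tested. Fitting only the groups compared gave 3 from DE1 to DE2 and 2 for the difference of DE1 and PS, Evx1 and Hoxc4. That fit lost 5 calls: Hoxb9 for dTAG13 in DE1, Hoxb4 from PS to DE1, and Cdx2, Hoxb9 and Hoxd13 from DE1 to DE2. Among its gains was Evx1 for dTAG13 in DE1. For the difference of DE2 and DE1 a pseudocount of 0.5, equal totals, and limma without trend or robust fitting gave 1 each. The cause of these moves was not tested. Quantile normalisation shifted the median of all genes by -0.105 from DE1 to DE2.

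Depth limits the low members: of 39 genes, 16 were not tested, and values under about 10 rest on few reads. Each group holds 3 lines, which limits precision.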
